A study of Homo sapiens with 4 samples.

Results

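The histone genes were the 69 genes, out of 20176 that GENCODE release 44 lists as protein-coding on GRCh37, whose symbols begin with H1-, H2AC, H2BC, H3C or H4C. They comprised 10 H1, 16 H2A, 17 H2B, 13 H3 and 13 H4 genes, of which 51 lie on chromosome 6, 12 on chromosome 1 and 6 elsewhere. Binding of TRIM24 and TRIM28 to them was read from ChIP-seq of LNCaP, a line of human prostate cancer cells that responds to androgen. Cells were kept for 3 days in 5% charcoal-stripped serum, which removes steroids, and then received ethanol, the solvent, or 10 nM R1881, a synthetic androgen, for 16 h. TRIM24 was precipitated through its HA tag in LNCaP cells made to express HA-TRIM24 stably, so the TRIM24 samples report the tagged, added protein. The labels describe the TRIM28 samples as LNCaP cells and do not name HA-TRIM24. All 4 samples are labelled with genotype WT. Each factor was mapped once under each treatment, 1 sample per condition, so no difference between conditions could be tested against replicates.

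Core histones H2A, H2B, H3 and H4 form the protein spool around which DNA is wound, and H1 binds the DNA between spools. Most of these genes are short, lack introns, sit close together and are transcribed in S phase into mRNAs that end in a stem-loop instead of a poly(A) tail. TRIM28 is a corepressor that KRAB zinc finger proteins bring to DNA, and TRIM24 is a related protein that reads histone marks and acts with nuclear receptors such as the androgen receptor.

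The libraries held between 11606880 and 25145171 tags, with TRIM28 with ethanol the deepest. TRIM24 had 5232 sites with ethanol and 9363 with R1881, and TRIM28 had 58201 and 34574. Site strength is given as normalized tags, the tags in a site scaled to a library of 10000000. A larger library can list weaker sites, and the header minimum came to 4.77 normalized tags in TRIM28 with ethanol but between 6.32 and 7.75 in the others. Between 3.86% and 7.51% of the sites in a list held fewer tags than this minimum, among them the sites at H1-10 of TRIM24 with ethanol and TRIM28 with R1881, with 8 tags each. No input library entered the site calling. The sites did not allow the cell type to be checked.

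The strongest site at any histone gene lay upstream of H4C8, an H4 gene on chromosome 6, and it is shown first because overlapping sites were in all 4 lists. It is printed as called in TRIM24 with R1881. The capitals mark a B box match, GNTCGANNC on either strand, an element inside the genes that RNA polymerase III transcribes, such as tRNA genes. RefSeq places LOC124901287, a non-coding RNA gene, and then TRX-CAT1-2, an initiator methionine tRNA gene, next to H4C8 in its gene order. Sequences are from GRCh37 and run from 5′ to 3′ on the strand given.
H4C8 upstream site (chr6:26286699-26286855, plus strand): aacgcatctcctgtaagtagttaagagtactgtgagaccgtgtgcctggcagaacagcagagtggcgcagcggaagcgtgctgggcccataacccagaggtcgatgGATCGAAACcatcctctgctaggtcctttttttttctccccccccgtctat

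The promoters below, the 150 bases before the start of the gene, belong to some of the H1 and H4 genes that had a TRIM24 site, together with the whole stretch between the starts of H2BC21 and H2AC20, a pair with sites of both factors. Capitals mark, on either strand, the CCAAT box, the TATA box (TATAAA) or the H4 promoter letters GGTCCG.
H1-4 (chr6:26156407-26156556, plus strand): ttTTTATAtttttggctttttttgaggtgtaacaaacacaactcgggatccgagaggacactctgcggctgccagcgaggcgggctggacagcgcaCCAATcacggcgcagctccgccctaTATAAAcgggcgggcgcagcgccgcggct
H1-10 (chr3:129035130-129035279, minus strand): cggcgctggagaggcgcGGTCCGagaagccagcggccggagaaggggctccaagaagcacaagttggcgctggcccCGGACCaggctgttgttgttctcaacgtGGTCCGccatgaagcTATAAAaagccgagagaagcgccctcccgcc
H4C3 (chr6:26104011-26104160, plus strand): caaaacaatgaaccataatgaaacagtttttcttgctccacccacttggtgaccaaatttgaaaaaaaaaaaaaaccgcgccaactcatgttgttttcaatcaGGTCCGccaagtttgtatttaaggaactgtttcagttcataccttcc
H4C14 (chr1:149804071-149804220, plus strand): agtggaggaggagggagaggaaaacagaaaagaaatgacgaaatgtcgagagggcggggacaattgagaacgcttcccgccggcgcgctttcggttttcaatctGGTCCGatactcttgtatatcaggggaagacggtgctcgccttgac
H4C16 (chr12:14924066-14924215, minus strand): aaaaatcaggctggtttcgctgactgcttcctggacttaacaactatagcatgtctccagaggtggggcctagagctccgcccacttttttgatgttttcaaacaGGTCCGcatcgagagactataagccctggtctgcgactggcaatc
H2BC21-H2AC20 (chr1:149858233-149858467, plus strand): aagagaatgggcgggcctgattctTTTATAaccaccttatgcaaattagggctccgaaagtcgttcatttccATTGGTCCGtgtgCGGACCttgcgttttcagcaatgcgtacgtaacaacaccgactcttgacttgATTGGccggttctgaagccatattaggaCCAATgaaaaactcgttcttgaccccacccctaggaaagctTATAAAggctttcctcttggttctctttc

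A gene was counted as bound when the centre of a site lay within 2 kb of a transcription start site (TSS). TRIM24 had a site at 5 of 69 histone genes with ethanol (7.25%, Wilson 95% interval 3.13 to 15.9), where 10.6% of all protein-coding genes had one. With R1881 it had a site at 10 histone genes (14.5%, 8.07 to 24.7), where the share of all genes was 18.4%. TRIM24 was thus listed at few histone genes, and both intervals held the share of all genes. TRIM28 had a site at 41 histone genes with ethanol (59.4%, 47.6 to 70.2) beside 56.3% of all genes. With R1881 TRIM28 was at 20 histone genes (29.0%, 19.6 to 40.6) beside 37.4%. With the TSSs of all transcripts counted, histone genes were therefore near or below the background in every list. This comparison depended on the TSSs used. With gene 5′ ends only, TRIM28 with ethanol was at 58.0% of histone genes beside 48.1% of all genes. TRIM28 with R1881 was then at 29.0% beside 29.5%, and TRIM24 with R1881 at 14.5% beside 15.0%. TRIM24 with ethanol stayed below the share of all genes. These differences were not tested. The intervals treat genes as independent draws, but neighbouring histone genes often shared a site.

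Both factors were listed at the same gene for 5 histone genes with ethanol (7.25%, 3.13 to 15.9) and for 4 with R1881 (5.80%, 2.28 to 14.0). The shares of all protein-coding genes were 10.1% and 13.5%. Those with ethanol were H4C8, H2BC21, H2AC20, H2AC21 and H1-10, and those with R1881 were H4C8, H3C14, H1-4 and H2BC5. H4C8 was the 1 gene present in both conditions.

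TRIM28 was listed at 41 histone genes with ethanol and at 20 with R1881, while for TRIM24 the count was 5 with ethanol and 10 with R1881. The TRIM28 lists had different minimum strengths, and at a common minimum of 6.3 normalized tags, chosen after the counts were seen, TRIM28 was at 19 histone genes in each condition. The share of all protein-coding genes at that minimum was 40.6% with ethanol and 35.1% with R1881. At a common minimum of 7.8 the TRIM24 counts were 4 with ethanol and 10 with R1881, beside 10.1% and 14.8% of all genes. At a minimum of 8 normalized tags in every list, TRIM28 was at 12 histone genes with ethanol and 7 with R1881, beside 23.2% and 16.5% of all genes, so whether the TRIM28 count fell depended on the minimum. With 1 sample per condition, an effect of R1881 and a difference between libraries cannot be told apart.

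**Figure D1:**
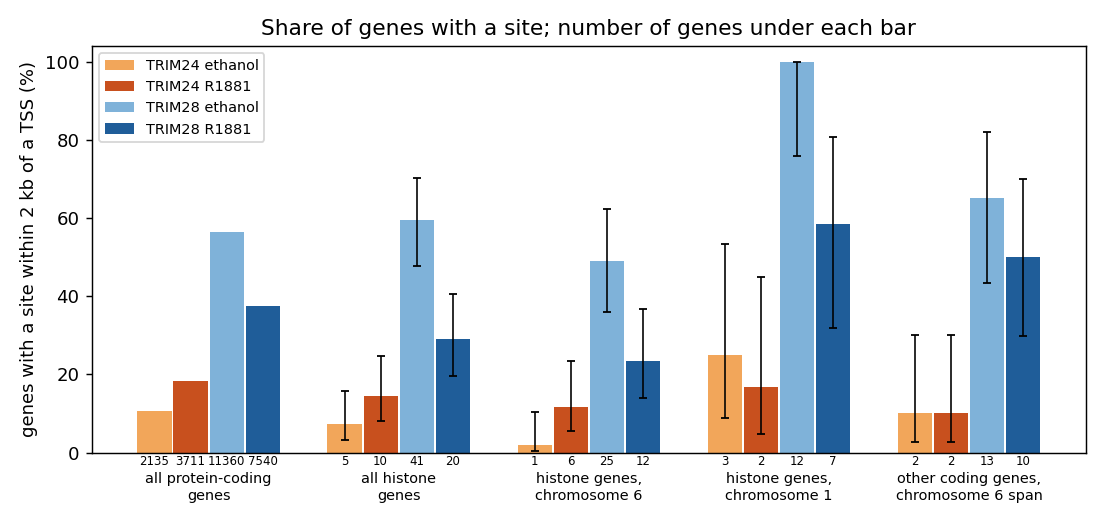
Percent of genes with a site within 2 kb of a TSS in each sample, for all 20176 protein-coding genes, the 69 histone genes, those on chromosome 6 (51) and chromosome 1 (12), and the 20 other coding genes in the chromosome 6 span; error bars are Wilson 95% intervals, drawn for all sets but the first. All 12 chromosome 1 histone genes had a TRIM28 site with ethanol, against 25 of 51 on chromosome 6.

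Of the 69 genes, 43 had a site in at least 1 list and 26 had none, where 60.2% of all protein-coding genes had a site in some list. The genes without a site included 24 on chromosome 6, namely 4 H1 genes and 5 of each core class, and the other two were H1-7 on chromosome 12 and H2BC12L on chromosome 21. All 12 genes on chromosome 1 had a site. TRIM28 was at 18 genes in both conditions, at 17 genes it was the only factor and ethanol the only condition, and at 2 genes, H2AC14 and H2BC14, the only site was of TRIM28 with R1881. All 14 genes with a TRIM24 site also had a TRIM28 site in some list, as did 95.3% of all protein-coding genes with a TRIM24 site.

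TRIM28 was listed at a larger share of the histone genes on chromosome 1 than on chromosome 6. On chromosome 1, TRIM28 was at 12 of 12 histone genes with ethanol (100%, 75.8 to 100) and at 7 with R1881 (58.3%, 32.0 to 80.7). On chromosome 6 the counts were 25 of 51 (49.0%, 35.9 to 62.3) and 12 of 51 (23.5%, 14.0 to 36.8). The intervals of the clusters did not overlap with ethanol and overlapped with R1881. Of the shares of all genes, 56.3% with ethanol lay within the interval of chromosome 6 and below that of chromosome 1, and 37.4% with R1881 lay within that of chromosome 1 and just above that of chromosome 6. At the common minimum of 6.3 normalized tags the counts were 8 of 12 and 7 of 12 on chromosome 1, and 9 of 51 and 12 of 51 on chromosome 6. When sites with at least 8-fold the local tag density were kept, the order turned with ethanol, to 0 of 12 on chromosome 1 and 3 of 51 on chromosome 6. Genes within a cluster share sites, since the 12 genes on chromosome 1 had 11 distinct TRIM28 sites with ethanol and 5 with R1881, and the 51 on chromosome 6 had 20 and 9. The median of the TRIM28 sites was 6.8 normalized tags with ethanol and 9.1 with R1881 on chromosome 1, and 6.0 and 7.0 on chromosome 6.

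TRIM24 was at 3 chromosome 1 genes with ethanol (25.0%, 8.89 to 53.2) and 2 with R1881 (16.7%, 4.70 to 44.8). On chromosome 6 it was at 1 gene with ethanol (1.96%, 0.347 to 10.3) and 6 with R1881 (11.8%, 5.51 to 23.4). The shares of all genes were 10.6% with ethanol and 18.4% with R1881. With ethanol this share lay just above the interval of chromosome 6, and the other intervals held the share of their condition. The 3 genes on chromosome 1 with ethanol shared a single site, so the cluster counts for TRIM24 rest on 1 or 2 distinct sites on chromosome 1 and on 1 and 6 on chromosome 6. No order of the clusters was read from so few sites.

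**Figure D2:**
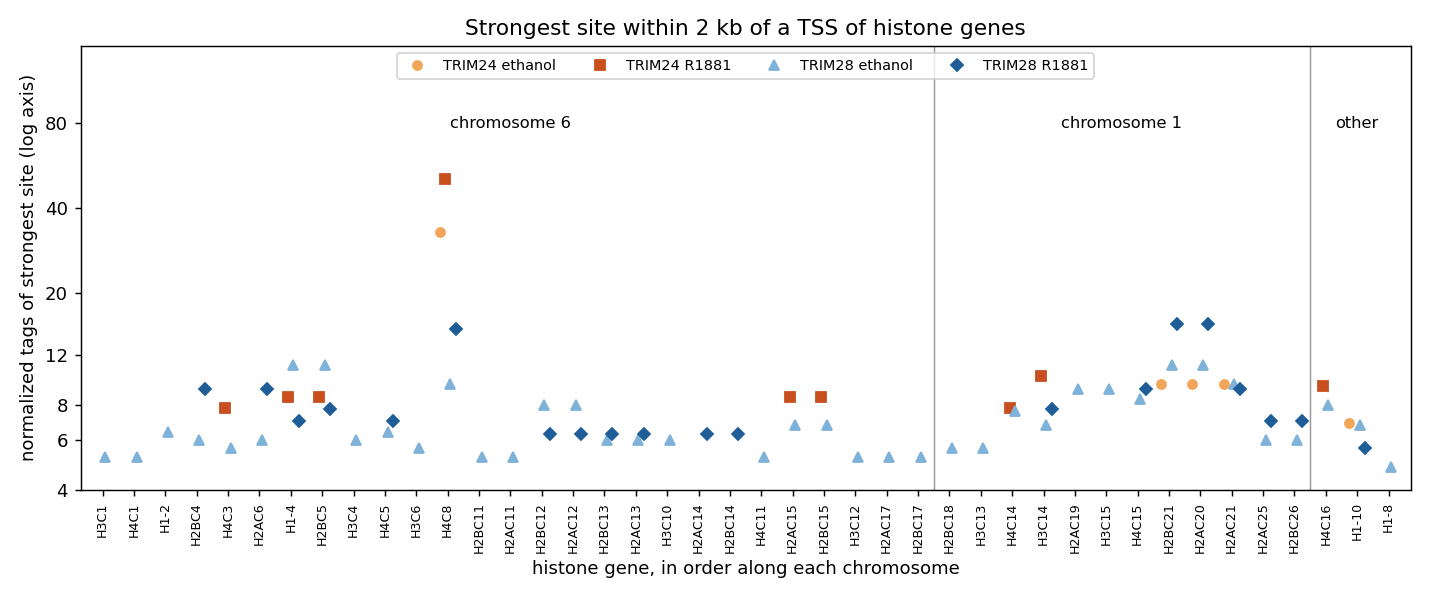
Normalized tags (log axis) of the strongest site within 2 kb of a TSS for the histone genes with any site, bar 1 that is not shown, in chromosomal order, 1 marker per sample; a missing marker means that no site was listed. H4C8 stands above all other genes in TRIM24, at 32.7 with ethanol and 50.4 with R1881, and H2BC21 and H2AC20 lead in TRIM28 with R1881, at 15.5.

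Linker histone genes came first in the order of classes. TRIM24 had a site at 1 of 10 H1 genes with ethanol (10%) and 2 with R1881 (20%), beside 10.6% and 18.4% of all genes. TRIM28 was at 5 (50%, 23.7 to 76.3) and 2 (20%, 5.67 to 51.0), beside 56.3% and 37.4%. H1-4, a linker histone gene of dividing cells on chromosome 6, had 8.5 normalized tags in TRIM24 with R1881, 11.1 in TRIM28 with ethanol and 7.0 in TRIM28 with R1881, and no site in TRIM24 with ethanol. The TRIM24 site (chr6:26156487-26156643) was centred 8 bp into the gene, in its UTR, and held a B box match. H1-10 on chromosome 3, a linker histone outside the clusters, was the reverse of H1-4 for TRIM24, with a site of 6.9 with ethanol (chr3:129034992-129035146, 60 bp into the gene) and none with R1881. Its TRIM28 sites reached 6.8 with ethanol and 5.6 with R1881. H1-2 and the oocyte gene H1-8 had a TRIM28 site with ethanol only, of 6.4 and 4.8.

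Genes of H2A and H2B, which pair with each other in the nucleosome, had TRIM28 sites in shares near those of all genes. TRIM28 was at 10 of 16 H2A genes with ethanol (62.5%, 38.6 to 81.5) and 7 with R1881 (43.8%, 23.1 to 66.8), and at 10 of 17 H2B genes with ethanol (58.8%, 36.0 to 78.4) and 7 with R1881 (41.2%, 21.6 to 64.0). The intervals held 56.3% and 37.4%, the shares of all genes. TRIM24 was at 2 and 1 H2A genes (12.5% and 6.25%) and at 1 and 2 H2B genes (5.88% and 11.8%), beside 10.6% and 18.4% of all genes. Most of these genes are read in opposite directions from a shared promoter, and 11 such pairs of histone genes lay between 193 and 978 bp apart. The gap of 978 bp was that of an H3 and an H2B gene, H3C7 and H2BC9, and the pairs of H2A and H2B genes lay at most 250 bp apart. Both genes of a pair had a site for 1 pair in TRIM24 with ethanol (H2BC21 and H2AC20), 1 with R1881 (H2AC15 and H2BC15), 8 in TRIM28 with ethanol and 6 with R1881. Since the window of 2 kb is wider than these gaps, one site usually served both genes.

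H2BC21 and H2AC20 on chromosome 1 had the strongest TRIM28 site of the histone genes with R1881, of 15.5 normalized tags (chr1:149857256-149857412). With ethanol it had 11.1 (chr1:149857248-149857412), the same as the site at H1-4. It did not lie in the shared promoter printed above but about 0.9 kb into H2BC21, 902 and 898 bp from its TSS and in its UTR. A second TRIM28 site with ethanol, of 9.5 (chr1:149858473-149858637), was in the coding exon of H2AC20, 87 bp from the TSS. The TRIM24 site with ethanol, also of 9.5 (chr1:149858439-149858593), overlapped that second site and was within 2 kb of H2AC21 too. TRIM24 with R1881 had no site at these 3 genes.

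Of the other H2A and H2B genes on chromosome 1, H2BC18 and H2AC19 had TRIM28 sites with ethanol only, of 5.6 and 9.1. The site at H2AC19 was also the one at H3C15, described below as uncertain as to the copy. H2AC21 had 9.5 with ethanol and 9.1 with R1881, at sites that did not overlap. H2AC25 and H2BC26, the pair away from the main group of genes on this chromosome, had 6.0 with ethanol and 7.0 with R1881. The 2 genes shared 1 site in each list, and the sites of the 2 lists did not overlap. On chromosome 6, H2AC15 and H2BC15 had TRIM24 sites with R1881 of 8.5 (chr6:27804848-27805004) and 7.8 (chr6:27805947-27806103), and TRIM28 sites of 6.8 and 6.4 with ethanol overlapped them. H2BC5 had 8.5 in TRIM24 with R1881 from the site at H1-4 and a TRIM28 site of its own with R1881, of 7.7, 859 bp into the gene. H2BC4 and H2AC6 had 6.0 and 9.1 in TRIM28 with ethanol and R1881, at sites that did not overlap. H2BC12 and H2AC12 had 8.0 and 6.3 in the same lists, also at sites that did not overlap.

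Among H3 genes, TRIM28 was at 8 of 13 with ethanol (61.5%, 35.5 to 82.3) and 1 with R1881 (7.69%, 1.37 to 33.3). The shares of all genes were 56.3% and 37.4%. TRIM24 was at 0 and 1 H3 genes (0% and 7.69%), beside 10.6% and 18.4% of all genes. The 1 gene in both R1881 lists was H3C14 on chromosome 1. It had 10.1 normalized tags in TRIM24 with R1881 (chr1:149813350-149813506), 6.8 in TRIM28 with ethanol and 7.7 in TRIM28 with R1881, at overlapping sites between 536 and 659 bp upstream. An H2A gene that the annotation keeps under the older symbol HIST2H2AA3 lies beside this site, which is within 2 kb of a TSS of that gene as well. H3C15, whose gene sequence is 100% identical to that of H3C14, had a TRIM28 site of 9.1 with ethanol and H3C13 one of 5.6. Tags from identical copies cannot be told apart by sequence, so sites at H3C14, H3C15, H4C14 and H4C15 are uncertain as to the copy. The site at H3C15 was also the one at H2AC19, which shares this uncertainty. Copies were sought among the 69 genes only, so HIST2H2AA3 was not compared with H2AC19 or any other gene.

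Of the 13 H4 genes, TRIM24 was at 1 with ethanol and 4 with R1881 (30.8%, 12.7 to 57.6), an interval that held the 18.4% of all genes. With ethanol the TRIM24 share was 7.69%, beside 10.6% of all genes. TRIM28 was at 8 (61.5%, 35.5 to 82.3) and 3 (23.1%, 8.18 to 50.3) of the H4 genes, beside 56.3% and 37.4%. Beside H4C8, the R1881 count was made up of H4C14 on chromosome 1 with 7.8 (chr1:149804245-149804401), H4C3 on chromosome 6 with 7.8 (chr6:26104119-26104275) and H4C16 on chromosome 12 with 9.3 (chr12:14923339-14923495) and 7.8 (chr12:14923969-14924125). Each of these genes also had a TRIM28 site with ethanol, of 7.6, 5.6 and 8.0, and none with R1881. H4C15 on chromosome 1 had TRIM28 sites of 8.4 with ethanol and 9.1 with R1881, which did not overlap, and none of TRIM24. H4C5 had 6.4 and 7.0 in the TRIM28 lists.

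H4C8 was the only histone gene in all 4 lists. Its upstream site had 32.7 normalized tags in TRIM24 with ethanol (38 tags, exact Poisson 95% interval 23.2 to 44.9), 50.4 in TRIM24 with R1881 (65 tags, 38.9 to 64.3), 9.5 in TRIM28 with ethanol (24 tags, 6.12 to 14.2) and 14.8 in TRIM28 with R1881 (21 tags, 9.13 to 22.6). Both TRIM24 values were above both TRIM28 values, and R1881 was above ethanol for each factor. The site was ranked 423 of 9363 in TRIM24 with R1881 and 537 of 5232 with ethanol, but 1920 of 34574 and 7641 of 58201 in TRIM28. It lay between 811 and 928 bp upstream of the nearest TSS, inside introns of a pair of long gene records whose type GENCODE has not settled. The site was given to H4C8 by its distance from a TSS only. Without tRNA gene coordinates on GRCh37, whether it lies on the neighbouring tRNA gene rather than in the H4C8 promoter was not tested. The TRIM28 site with ethanol (chr6:26286595-26286759) overlapped those of the other lists only in part. Unlike them, it held no B box match. A weaker site at the TSS itself had 10.9 in TRIM24 with R1881, 6.8 in TRIM28 with ethanol and 9.1 in TRIM28 with R1881, and none in TRIM24 with ethanol.

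Sites listed in both conditions allowed a direct ratio of R1881 to ethanol. For TRIM28 there were 8 overlapping pairs at histone genes, with a median log2 ratio of 0.19, from -0.66 at H1-4 to 0.63 at the H4C8 upstream site, and 6 of 8 were above 0. Over all 21637 overlapping TRIM28 pairs the median was 0.08. The 95% interval of every one of the 8 ratios held 0. At the H4C8 upstream site the TRIM28 sites of the 2 conditions overlapped only in part, so the 0.63 compares unlike stretches. The only TRIM24 pair was the H4C8 upstream site, with a log2 ratio of 0.62 (0.02 to 1.24), or 1.54-fold, where all 2488 TRIM24 pairs had a median of -0.03. These intervals cover counting error only and compare 2 libraries, not the conditions.

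TRIM24 was compared with TRIM28 in the same way. At the H4C8 upstream site the log2 ratio of TRIM24 to TRIM28 was 1.78 (1.00 to 2.58) with ethanol and 1.77 (1.04 to 2.56) with R1881, or 3.43-fold and 3.42-fold. With ethanol the TRIM24 site (chr6:26286717-26286871) and the TRIM28 site (chr6:26286595-26286759) overlapped only in part, so that ratio compares unlike stretches. Elsewhere the ratios with R1881 were 0.25 at the H4C8 TSS, 0.38 at H3C14 and 0.28 at H1-4, and with ethanol -0.01 at H2AC20 and 0.03 at H1-10, each with an interval that held 0. The H4C8 upstream site was thus the 1 place of this set where the counts of the libraries differed beyond counting error. Different antibodies were used for the 2 proteins, so these ratios compare enrichment and not the amount of protein.

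Overlap of whole sites was counted at a minimum of 1 bp. Of the 11 TRIM24 sites with R1881, 9 (81.8%) overlapped a TRIM28 site with ethanol and 4 (36.4%) one with R1881, where the shares over TRIM24 sites at all protein-coding genes were 61.3% and 44.2%. All 3 TRIM24 sites with ethanol overlapped a TRIM28 site with ethanol, beside 69.1%. In the other direction, 9 of 37 TRIM28 sites with ethanol (24.3%) overlapped a TRIM24 site with R1881, and 4 of 15 TRIM28 sites with R1881 (26.7%) did so, beside 13.9% and 18.1%. The 2 TRIM28 lists shared 8 sites, which was 21.6% of the sites with ethanol and 53.3% of those with R1881, beside 34.9% and 63.1% at all genes. With so few sites, no difference from all genes was read from these shares.

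The position of the sites is drawn below. Within 250 bp of a TSS lay 8 of 11 TRIM24 sites with R1881 (72.7%) and 23 of 37 TRIM28 sites with ethanol (62.2%), close to 71.1% and 60.8% for the sites at all protein-coding genes. For TRIM28 with R1881 the count was 5 of 15 (33.3%) beside 61.1%, and the median distance was 536 bp beside 151 bp. Fewer sites at histone genes were upstream of the TSS, with 21.6% beside 51.2% in TRIM28 with ethanol, 33.3% beside 54.7% in TRIM28 with R1881 and 27.3% beside 48.8% in TRIM24 with R1881. Accordingly, coding exons held 48.6%, 26.7% and 27.3% of these sites, beside 11.1%, 9.34% and 13.7%. Histone genes are short and nearly all without introns, so a site a little way into the gene falls in coding sequence.

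**Figure D3:**
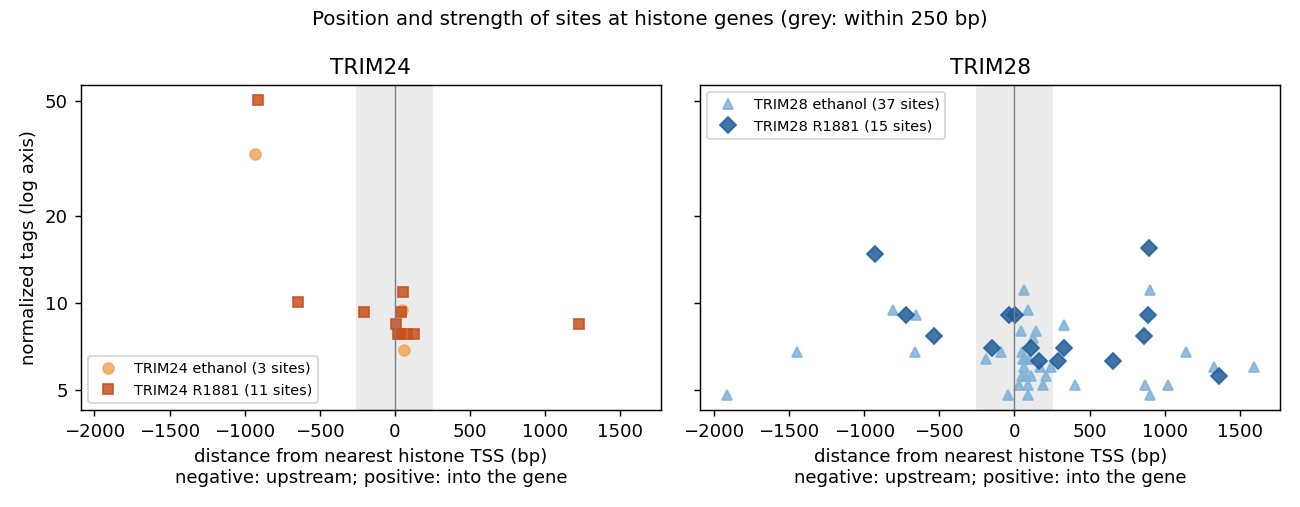
Distance of each site from the nearest histone TSS in bp (negative upstream) against its normalized tags (log axis), TRIM24 left and TRIM28 right; the grey band spans 250 bp to either side. Most TRIM24 sites with R1881 (8 of 11) and TRIM28 sites with ethanol (23 of 37) lie in the band, and the H4C8 upstream site stands out in TRIM24 at 32.7 and 50.4.

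Sites at histone genes stood less far above their surroundings than promoter sites in general, which was not tested. The deposited fold over the surrounding 10 kb had a median of 7.66 in TRIM24 with R1881, 5.00 in TRIM28 with ethanol and 6.31 in TRIM28 with R1881, where the medians at all protein-coding genes were 9.29, 6.68 and 8.11. In normalized tags the medians were 8.5, 6.0 and 7.7 at histone genes and 8.5, 6.8 and 7.7 at all. The strongest fold was 47.9 at the H4C8 upstream site in TRIM24 with R1881. Sites need at least 4-fold to be listed, so a gene without one may still hold some tags.

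The chromosome 6 genes lie in a span of 2.14 Mb (chr6:25723625-27861669), 7.04% of which was within 2 kb of a histone TSS. This stretch is also rich in tRNA genes. It held 67 and 92 TRIM24 sites with ethanol and R1881, and 136 and 78 TRIM28 sites. Near histone TSSs were 1 (1.49%) and 6 (6.52%) of the TRIM24 sites, and 19 (14.0%) and 9 (11.5%) of the TRIM28 sites. Most sites of the histone region were therefore not at histone genes.

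The TRIM24 sites elsewhere in the span were strong. Their median was 18.1 normalized tags with ethanol and 28.3 with R1881, up to 41.4 and 76.1, where the 6 sites near histone TSSs with R1881 had a median of 8.5. A B box match was present in 74.2% and 68.6% of them, beside 6.68% and 5.41% of all sites on the searched chromosomes. For TRIM28 the sites elsewhere had medians of 7.2 and 7.7, beside 6.0 and 7.0 near histone TSSs, with a match in 30.8% and 36.2%, beside 1.73% and 1.58% of all TRIM28 sites. Among sites near histone TSSs with R1881, 2 of 6 TRIM24 sites had a match, those upstream of H4C8 and at H1-4. Without the B box sites, the TRIM24 sites near histone TSSs with R1881 had a median of 8.15 and those elsewhere one of 17.1. A match is a description of the letters, and whether tRNA genes drew the tags was not tested.

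**Figure D4:**
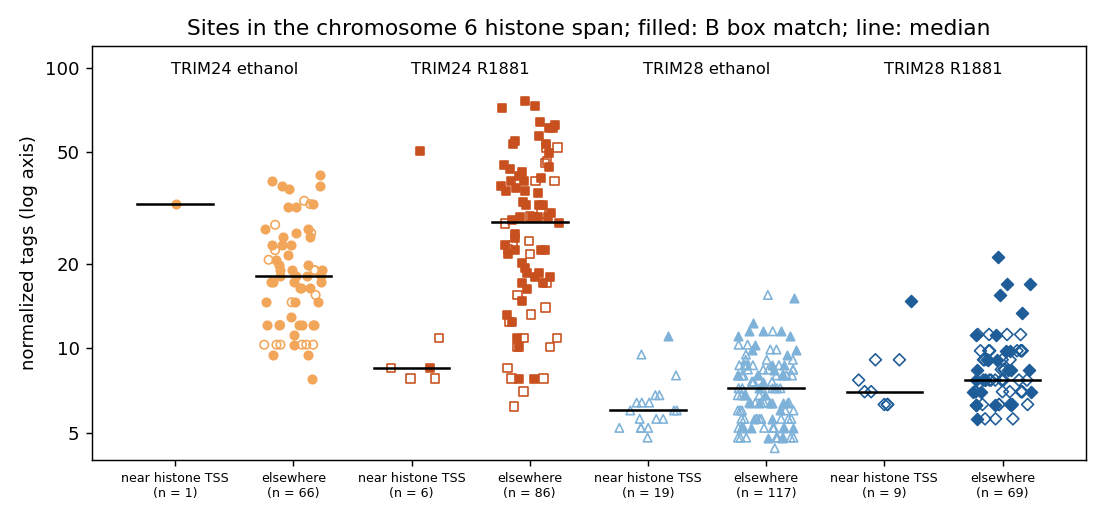
Normalized tags (log axis) of every site in the chromosome 6 span, near a histone TSS or elsewhere, in each sample; filled markers have a B box match and black lines are medians. TRIM24 sites away from histone genes reach 41.4 with ethanol and 76.1 with R1881, most with a match, and the H4C8 upstream site is the histone site among them.

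The 20 other protein-coding genes of the span gave a local comparison. TRIM24 was at 2 of them in each condition (10.0%, 2.79 to 30.1), and TRIM28 at 13 with ethanol (65%, 43.3 to 81.9) and 10 with R1881 (50%, 29.9 to 70.1). These intervals overlapped those of the chromosome 6 histone genes. HMGN4, a chromatin protein gene between the histone genes, had the strongest TRIM24 sites of these 20, of 37.9 with ethanol and 76.1 with R1881, and TRIM28 sites of 15.1 and 9.8. Its TRIM24 sites of 37.9 and 76.1 and its TRIM28 site of 15.1 held a B box match.

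Promoter letters were searched in the 250 bp before each gene, on both strands. CCAAT was present in 57 of 69 histone promoters (82.6%, all genes 34.2%), TATAAA in 45 (65.2%, all 9.40%) and the octamer ATTTGCAT in 25 (36.2%, all 1.53%). The octamer was in 12 of 16 H2A and 13 of 17 H2B promoters and in none of the other classes. GGTCCG, part of a known H4 promoter element, was in 16 histone promoters (23.2%, all 12.1%), 11 of them among the 13 H4 genes, as in the 3 H4 promoters printed above. Of the 10 genes with a TRIM24 site with R1881, 0 had the octamer and 5 had GGTCCG, where of the 59 without a site 25 and 11 had them. With TRIM28 and ethanol the octamer was in 12 of 41 genes with a site and 13 of 28 without. In the other lists the octamer was more frequent at genes with a site. The counts with and without a site were 3 of 5 and 22 of 64 in TRIM24 with ethanol. They were 9 of 20 and 16 of 49 in TRIM28 with R1881. Class and letters go together, so these counts do not separate them. The androgen response element core ACANNNTGT and the forkhead core TGTTTAC were each in 1 histone promoter (1.45%, all 3.29% and 2.11%), and the E2F letters TTTGGCGC in 0 (all 0.724%).

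Genes that work with the histone genes were counted by list. Androgen-regulated genes, checked as a control, had a TRIM24 site at 2 of 6 with ethanol and 4 with R1881, and a TRIM28 site at 5 and 3, among them KLK2, TMPRSS2, FKBP5 and SLC45A3 but not KLK3, with no share read from 6 genes. Of 11 genes listed as replication-independent variants, TRIM24 was at 3 with ethanol (27.3%) and 4 with R1881 (36.4%), and TRIM28 at 8 (72.7%) and 7 (63.6%). The shares of all genes were 10.6% and 18.4% for TRIM24 and 56.3% and 37.4% for TRIM28. H3-3B, which encodes H3.3, had 43.1 and 48.9 normalized tags in TRIM24 and 7.6 and 9.1 in TRIM28, comparable in TRIM24 with the H4C8 upstream site. H2AZ2, an H2A.Z gene, was also in all 4 lists, with 10.3 and 7.0 in TRIM24 and 4.4 and 5.6 in TRIM28. H3-3A, the other H3.3 gene, had 8.5 in TRIM24 with R1881 and 10.7 and 7.7 in TRIM28.

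Of 18 genes for histone gene transcription and mRNA 3′ end processing, TRIM24 was at 4 with ethanol (22.2%) and 2 with R1881 (11.1%), and TRIM28 at 13 (72.2%) and 7 (38.9%). COIL, which builds Cajal bodies, had 12.1 and 10.1 in TRIM24 and 10.3 and 7.0 in TRIM28. CPSF3, the nuclease that cuts histone pre-mRNA, had 11.2 in TRIM24 with ethanol and 7.2 and 11.9 in TRIM28. NPAT, the S-phase activator of these genes, had TRIM28 sites only, of 8.7 and 6.3, and HINFP, which binds H4 promoters, had none.

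Of 16 histone chaperones, which carry histones to DNA, TRIM24 was at 3 (18.8%) and 6 (37.5%) and TRIM28 at 11 (68.8%) and 8 (50%). CABIN1 and HIRA, of the complex that deposits H3.3, were in all 4 lists. CABIN1 had 24.1 and 21 in TRIM24 and 17.1 and 22.5 in TRIM28. HIRA had 14.6 and 10.1 in TRIM24 and 11.5 and 9.1 in TRIM28. None of these lists was tested against the shares of all genes, which were 10.6% and 18.4% for TRIM24 and 56.3% and 37.4% for TRIM28.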

How the data were processed

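ChIP-seq of HA-TRIM24 and TRIM28 was analysed in 4 samples, 1 per condition, grouped by their titles. Per the submitters' processing notes, reads were aligned to hg19 with BWA 0.6.1 and analysed with HOMER 4.1. Per the file headers, the authors called sites of 155 to 165 bp in each sample under a 0.001 false discovery rate, requiring 4-fold the tag density of the surrounding 10 kb at a Poisson p-value of 1e-04 and a tag threshold of 9, or 12 in TRIM28 with ethanol. The deposited counts of some sites lie below that threshold. The treatment of reads that match several places was not given in the sources used here. The methods describe matching total reads between samples, whereas the headers hold unequal totals. The deposited signal, normalized tags, was set by the authors to a library of 10000000. The deposited score, fold over the local region (a ratio) and p-value were also read, the score for alternatives only. The paper's text and the labels differ on whether TRIM28 was mapped in cells with HA-TRIM24.

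TSSs were those of all transcripts in GENCODE release 44 lifted to GRCh37, and sequences were read from the GRCh37 genome. A site was given to every gene with a TSS within 2 kb of its centre. The tags behind a site were recovered as the normalized count times the library total over 10000000, which gave whole numbers within rounding for 100% of sites. Shares have Wilson 95% intervals, tag counts exact Poisson and ratios exact binomial intervals, and all of these cover counting error or the sampling of genes only. The genes named were all with a TRIM24 site, the 10 with the most normalized tags in each TRIM28 list, all on chromosome 1 or outside chromosomes 1 and 6, and up to 5 per related list with the most normalized tags, though some genes that meet the rule are not reported here by name. H1-2, H4C5, H2BC4, H2AC6, NPAT, HINFP and further genes beyond this rule were named after their values were seen. The members and lists were chosen with earlier results of these data known. GGTCCG, the B box, the genes under older HIST symbols and the common minimum per factor were chosen after seeing the data. Assignment of sites was tested on simulated data for 300 genes. Scripts ran under Python 3.11.15 with pysam 0.24.0, scipy 1.17.1, numpy 2.4.6 and pandas 2.3.3.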

Additional observations from a re-analysis of the deposited data

Results flagged for a closer look

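The number of histone genes with a site moved in opposite directions in the 2 factors between ethanol and R1881. For TRIM24 it went from 5 to 10 genes, a log2 ratio of 1.00, and for TRIM28 from 41 to 20 genes, a log2 ratio of -1.04. The shares of all protein-coding genes moved the same way, from 10.6% to 18.4% for TRIM24 and from 56.3% to 37.4% for TRIM28. The difference between the factors was not tested, since there was 1 sample per condition. At the common minimum of each factor the counts were 4 and 10 for TRIM24 and 19 and 19 for TRIM28, and with the strongest 5232 sites of each list they were 5 and 4 for TRIM24 and 4 and 3 for TRIM28. Shares of all genes at the common minimum were 10.1% and 14.8% for TRIM24 and 40.6% and 35.1% for TRIM28. With the strongest 5232 sites they were 10.6% and 9.03% for TRIM24 and 6.08% and 4.44% for TRIM28.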

How the results depend on the processing

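No replicates exist, so no alternative could leave one out, and No paired analysis was possible because each condition had 1 sample. Of 142 alternative values, 106 stayed within a factor of 1.5 of the count, or within the interval of the median, and 36 moved, and no log2 ratio turned its sign. Windows of 1 kb or 5 kb, gene 5′ ends, any overlap and the genes under older symbols moved none of them. The shares of all genes were not among these values, and with gene 5′ ends they fell in every list.

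With at least 8 normalized tags, TRIM28 was at 12 histone genes with ethanol and 7 with R1881, and both factors at 1 with R1881. On chromosome 6 TRIM28 was at 5 with ethanol and 3 with R1881, and on chromosome 1 at 6 and 4, with TRIM24 at 1 on chromosome 1 with R1881. With at least 8-fold over the local region, TRIM24 was at 2 with ethanol and 4 with R1881, TRIM28 at 3 and 3, and both factors at 1 and 1. On chromosome 6 TRIM28 was then at 3 and 1 and TRIM24 with R1881 at 2, and on chromosome 1 TRIM28 at 0 and 2 and TRIM24 with R1881 at 0. With the strongest 5232 sites of each list, TRIM24 with R1881 was at 4, TRIM28 at 4 with ethanol and 3 with R1881, and both factors at 2 and 1. On chromosome 6 TRIM28 was then at 2 and 1 and TRIM24 with R1881 at 1, and on chromosome 1 TRIM28 at 2 and 2 and TRIM24 with R1881 at 1. These settings keep fewer sites. The shares of all genes at 8-fold were 9.13%, 13.5%, 22.4% and 24.3% in the order of the lists, beside 2.90%, 5.80%, 4.35% and 4.35% of histone genes. With the strongest 5232 sites they were 10.6%, 9.03%, 6.08% and 4.44%, beside 7.25%, 5.80%, 5.80% and 4.35% of histone genes. At the common minimum, TRIM28 with ethanol was at 19 histone genes, 9 of them on chromosome 6.

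Without the 4 genes that have a copy of at least 99% identity among the 69 histone genes, TRIM24 with R1881 was at 0 genes on chromosome 1. The TRIM24 log2 ratio at the H4C8 upstream site was 0.48 by the score and 0.82 by the fold over the local region, and the cause was not tested. The fewest tags of a listed site were 7 in both TRIM24 lists, 10 in TRIM28 with ethanol and 8 in TRIM28 with R1881, so weaker binding was not detectable here.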

Other observations

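The annotation keeps 2 further protein-coding histone genes under older symbols, which the naming rule left out. HIST2H2AA3 on chromosome 1 had 10.1 normalized tags in TRIM24 with R1881, 6.8 in TRIM28 with ethanol and 7.7 in TRIM28 with R1881. HIST1H4B on chromosome 6 had TRIM28 sites of 8.0 with ethanol and 7.0 with R1881. Neither had a TRIM24 site with ethanol.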
